A study of Mus musculus with 30 samples.

Results

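The urokinase system and a group of cell-surface and secreted proteases were followed in mouse epiblast stem cells (EpiSCs) and in definitive endoderm (DE) made from them. The set holds 9 of the 29555 genes in the deposited tables. These are the secreted proteases Plau (urokinase), Plat (tissue plasminogen activator) and Mmp2, the urokinase receptor Plaur, the membrane-bound metalloproteinases Mmp14 and Mmp25, and the inhibitors Serpine2, Timp1 and Timp3. The genes were chosen by their RNA counts in B6 DE and B6 EpiSCs, which were known when the list was made, so their values in that comparison are a description and carry no test. Peaks of open chromatin near the genes and strain differences were tested over all peaks or all genes. Of the 9 genes, 9 passed the filter on low counts in each RNA comparison.

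Plau and Plat cut plasminogen, which circulates in blood, into the broad protease plasmin. Plaur is a lipid-anchored receptor that holds urokinase at the cell surface, and Serpine2 (protease nexin-1) is a serpin that traps plasminogen activators, thrombin and plasmin. Mmp14 (MT1-MMP) is a transmembrane collagenase that activates pro-Mmp2, a secreted gelatinase, and Mmp25 (MT6-MMP) is held at the membrane by a lipid anchor. Timp1 and Timp3 inhibit metalloproteinases, and Timp3 stays bound to the extracellular matrix. Fibroblasts, which serve as feeder cells in many stem cell cultures, are a known source of urokinase, Mmp2, Mmp14 and Timp1.

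RNA-seq and ATAC-seq, which cuts open chromatin with a transposase, were done on untreated EpiSCs of strains C57BL/6 (B6), PWK/PhJ (PWK) and DBA/2J (DBA), and RNA-seq also on EpiSCs from the cross B6.129 F1 (here B6129F1). Per the labels, EpiSCs at passage 5 to 10 were grown on feeders in N2B27-based medium with Fgf2, Activin A and the tankyrase inhibitor NVP-TNKS656, and were lifted with collagenase, a step meant to leave feeders behind. B6 DE came from B6 EpiSCs given the Wnt agonist CHIR (CHIR99201 in the labels) and Activin A for 16 h, then Activin A and the BMP receptor inhibitor LDN193189 for 24 h. Cells positive for CXCR4 were kept on magnetic beads, and the labels give 46 h for the whole protocol. The RNA-seq libraries, of 22829536 to 66563933 counts each, were 5 of EpiSCs and 4 of DE from B6, and 3 of PWK, 3 of B6129F1 and 1 of DBA EpiSCs. The ATAC-seq libraries, of 3751526 to 9571127 counts in peaks, were 4 of EpiSCs and 4 of DE from B6, and 2 of PWK and 1 of DBA EpiSCs. The labels call the samples biological replicates but do not say whether they came from separate lines or cultures, so p-values measure only the spread between these samples.

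Markers of the labelled cell types were read first. The summed level of 4 EpiSC markers (Pou5f1, Sox2, Nanog, Otx2) was 1250 to 1800 CPM (counts scaled to library size) in EpiSC libraries and 461 to 550 CPM in DE. Otx2 went against the others, with a mean of 143 CPM in B6 EpiSCs and 491 CPM in DE, whereas Pou5f1 went from 1155 to 12.2 CPM, Sox2 from 67.2 to 0.923 CPM and Nanog from 101 to 11.7 CPM. The summed level of 6 definitive endoderm markers was 30.2 to 296 CPM in EpiSCs and 5670 to 12300 CPM in DE. Markers of mesoderm summed to at most 2.89 CPM and those of visceral endoderm to at most 13.8 CPM in any library. Parietal endoderm markers summed to 4.28 to 27.4 CPM in B6 EpiSCs and 36.4 to 121 CPM in DE, where Stra6 had a mean of 85.4 CPM (2.64 CPM in B6 EpiSCs) and Gkn2 was at 0, as it was in EpiSCs. Endothelial and blood markers summed to 0.664 to 1.22 CPM in B6 EpiSCs and 10.9 to 46.5 CPM in DE, nearly all of it Gata1 (mean 33.0 CPM, against 0.200 CPM in B6 EpiSCs), with Ptprc at 0 in DE. The 9 feeder fibroblast markers varied widely. They summed to 58.4 to 2840 CPM in B6 EpiSCs, 2260 to 3310 CPM in PWK, 136 to 219 CPM in B6129F1, 1600 CPM in DBA and 63.1 to 232 CPM in DE, where the highest library was replicate 2. Chromosome 8 genes of DE replicate 51 had a median shift of 0.45 log2 units from the mean of the other DE libraries. The shift is taken relative to the median shift of all genes. It was -0.10 to -0.14 in each other DE library, where replicate 51 is part of the mean compared with. The shift was computed in DE libraries only, and it touches Plat and Mmp2.

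Of the 9 genes, Plau and Mmp25 alone had B6 EpiSC and DE levels that did not overlap, and both were lower in DE. Among all 14085 genes tested, 55.6% did not overlap between these groups, 31.5% were called higher and 30.6% lower in DE. Since the genes were chosen with this comparison known, nothing is read from the count. Mmp2 and Timp1 were also lower in DE on average, Serpine2, Mmp14 and Timp3 were higher, and Plaur and Plat differed by less than the SD of either group. The feeder marker Col1a1, a fibrillar collagen chain, stood at 8.21, 300, 98.6, 289 and 754 CPM in B6 EpiSC replicates 1, 2, 4, 44 and 51, and at 34.9, 12.0, 5.50 and 17.7 CPM in DE replicates 2, 4, 44 and 51. EpiSC replicate 1 thus held less Col1a1 than 3 of the 4 DE libraries, and each gene's level there is given beside its group mean.

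Plau, the gene of urokinase (Ensembl ENSMUSG00000021822, chromosome 14 from 20836662 to 20843388, GRCm38.p6), was present in every EpiSC library and at the floor in DE. In B6 EpiSC replicates 1, 2, 4, 44 and 51 its level was 5.80, 63.0, 29.6, 70.3 and 126 CPM. DE replicate 2 had 2 counts (0.0945 CPM), and replicates 4, 44 and 51 had 0 counts. The lowest EpiSC library was therefore far above the highest DE library. The EpiSC mean of 58.9 CPM (SD 45.5, n = 5) was at least 415-fold above every DE library, taking as the floor 3 counts in the DE library where they are worth most (0.142 CPM, replicate 2), and EpiSC replicate 1 alone was at least 40.9-fold above. These are bulk samples, so fewer cells of a type and less RNA per cell cannot be told apart.

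Feeder markers were lower in DE as well, and their values are given beside Plau because of the spread above. Thy1, a surface marker of fibroblasts, was at 8.17 to 113 CPM in the B6 EpiSCs and at 0 to 0.142 CPM in DE. It was singled out after its values were seen, as the 1 marker of the 9 at the floor in DE. For the other 8 markers, EpiSC replicate 1 held 0.283 to 1.59 times the DE mean. Col1a1 was among those 8: DE replicate 2 held 34.9 CPM of Col1a1 with 0.0945 CPM of Plau, whereas the 3 B6129F1 EpiSC libraries held 30.5 to 47.9 CPM of Col1a1 with 4.82 to 13.2 CPM of Plau. As a ratio of CPM, Plau to Col1a1 was 0.133 to 0.706 over all 12 EpiSC libraries, 0.00271 in DE replicate 2 and 0 in the other DE libraries. Thy1 showed a like gap, at 5.87 to 9.31 CPM in the B6129F1 libraries. Mean Col1a2 was 271 CPM beside 290 CPM of Col1a1 in B6 EpiSCs, and 46.9 CPM beside 17.6 CPM in DE. Equal Col1a1 therefore need not mean equal feeder content in both states. How much of the Plau in EpiSC cultures came from feeder cells was not tested.

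Mmp25, the gene of the lipid-anchored metalloproteinase MT6-MMP (ENSMUSG00000023903, chromosome 17 from 23628315 to 23645269), had the most even level among EpiSCs. It stood at 114, 129, 111, 124 and 125 CPM in B6 EpiSC replicates 1, 2, 4, 44 and 51 and at 3.07, 5.29, 4.80 and 5.56 CPM in DE replicates 2, 4, 44 and 51. Every EpiSC library lay above every DE library by a wide margin, and the spread within each group was small. The mean was 25.8-fold higher in EpiSCs (121 ± 7.57 CPM, SD, n = 5) than in DE (4.68 ± 1.12 CPM, SD, n = 4), a log2 difference of -4.63 (SE 0.18) for DE. EpiSC replicate 1, with the least Col1a1, was 24.3-fold above the DE mean. The gene span overlaps Bicdl2 and contains the gene model Gm7773, and since the use of strand in counting is not given in the sources used here, reads of such neighbours may be included.

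The Mmp25 start site lies in a peak that was open in both states, which is why its sequence is shown. The window runs from 250 bases before to 50 bases after the start listed by RefSeq, at chr17:23645220-23645519 (GRCm38.p6, minus strand), and capitals mark matches to the Sp1 box GGGCGG on either strand.
Mmp25: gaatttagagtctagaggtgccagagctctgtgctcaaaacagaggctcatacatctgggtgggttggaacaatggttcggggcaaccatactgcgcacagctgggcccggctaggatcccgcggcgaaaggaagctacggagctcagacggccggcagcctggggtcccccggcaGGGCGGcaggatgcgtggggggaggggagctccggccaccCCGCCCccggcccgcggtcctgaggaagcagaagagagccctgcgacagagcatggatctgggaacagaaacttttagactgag
It held 2 such boxes, which occur in 35.9% of all 27025 promoter windows of this length, and none of the other motifs searched. One of those was the AP-1 box TGANTCA, found on either strand in 7.93% of windows. The TEAD motif GGAATG was found in 14.6% of windows. The GATA motif AGATAA was found in 11.4%. The Snail E-box CACCTG was found in 20.0%, likewise on either strand, and matches to different motifs were allowed to overlap. A match describes letters in the window and is not evidence of binding.

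Plaur, the gene of the urokinase receptor (ENSMUSG00000046223, chromosome 7 from 24460937 to 24475970), did not separate the states. Its level was 6.85, 3.73, 23.2, 11.3 and 10.6 CPM in B6 EpiSC replicates 1, 2, 4, 44 and 51 and 13.4, 2.84, 6.36 and 4.89 CPM in DE replicates 2, 4, 44 and 51. The groups overlapped, with the highest DE library above 4 of the 5 EpiSC libraries. The mean was 11.1 ± 7.40 CPM (SD, n = 5) in EpiSCs and 6.88 ± 4.59 CPM (SD, n = 4) in DE, a log2 difference of -0.63 (SE 0.58).

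Among the 6 members found in the promoter table, Plaur alone held an AP-1 box, the textbook site of Fos and Jun proteins, and its window is printed for that reason and because its start peak changed (chr7:24462233-24462532, plus strand, capitals as above and for TGANTCA).
Plaur: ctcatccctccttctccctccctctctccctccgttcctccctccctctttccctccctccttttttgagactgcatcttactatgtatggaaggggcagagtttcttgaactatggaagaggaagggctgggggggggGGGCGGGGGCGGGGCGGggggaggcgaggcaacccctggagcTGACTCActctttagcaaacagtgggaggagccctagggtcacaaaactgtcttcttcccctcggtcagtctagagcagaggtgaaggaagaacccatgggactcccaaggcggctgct
It also held 3 Sp1 boxes, of which the last pair overlap by 1 base. The start that RefSeq lists lies inside the gene span. Plau, Plat and Mmp2 had no entry in the table.

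Plat, the gene of tissue plasminogen activator (ENSMUSG00000031538, chromosome 8 from 22757722 to 22782848), likewise overlapped. Its level was 10.2, 15.0, 12.5, 19.6 and 36.6 CPM in B6 EpiSC replicates 1, 2, 4, 44 and 51 and 15.4, 5.29, 15.7 and 28.5 CPM in DE replicates 2, 4, 44 and 51. The highest DE library was replicate 51, whose chromosome 8 genes were shifted upward as a group. EpiSC libraries, among them replicate 51 with the most Plat, were not checked for such a shift. The DE mean was 16.2 ± 9.52 CPM (SD, n = 4) with DE replicate 51 and 12.1 CPM without it, beside 18.8 ± 10.5 CPM (SD, n = 5) in EpiSCs. The log2 difference of -0.15 (SE 0.48) turned to 0.22 without EpiSC replicate 51 and to 0.15 without DE replicate 4.

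Mmp2, the gene of the secreted gelatinase A (ENSMUSG00000031740, chromosome 8 from 92827290 to 92853421, overlapping the gene model Gm45472), was lower in DE on average, but not in comparison with EpiSC replicate 1. Its level was 10.8, 59.1, 37.2, 64.8 and 101 CPM in B6 EpiSC replicates 1, 2, 4, 44 and 51 and 19.1, 7.19, 13.1 and 13.3 CPM in DE replicates 2, 4, 44 and 51. EpiSC replicate 1 lay inside the DE range, and the other EpiSC libraries lay above all of DE. The EpiSC mean was 54.6 ± 33.6 CPM (SD, n = 5), 4.14-fold above the DE mean of 13.2 ± 4.86 CPM (SD, n = 4). The DE mean was 13.1 CPM without replicate 51.

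Mmp14, the gene of the transmembrane collagenase MT1-MMP that activates pro-Mmp2 (ENSMUSG00000000957, chromosome 14 from 54431598 to 54442456), was higher in DE. Its level was 49.8, 102, 87.6, 121 and 210 CPM in B6 EpiSC replicates 1, 2, 4, 44 and 51 and 164, 250, 290 and 246 CPM in DE replicates 2, 4, 44 and 51. Only EpiSC replicate 51, the library with the most Col1a1 among the B6 EpiSCs, reached into the DE range. The DE mean was 238 ± 52.8 CPM (SD, n = 4), 2.08-fold above the EpiSC mean of 114 ± 59.6 CPM (SD, n = 5) and 4.78-fold above EpiSC replicate 1.

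Serpine2, the gene of protease nexin-1 (ENSMUSG00000026249, chromosome 1 from 79794317 to 79858665), was modestly higher in DE. Its level was 76.8, 84.6, 86.0, 100 and 114 CPM in B6 EpiSC replicates 1, 2, 4, 44 and 51 and 123, 132, 107 and 230 CPM in DE replicates 2, 4, 44 and 51. DE replicate 44 was below EpiSC replicate 51, and DE replicate 51 stood well above the rest. The DE mean was 148 ± 55.8 CPM (SD, n = 4), 1.61-fold above the EpiSC mean of 92.3 ± 14.8 CPM (SD, n = 5). Without DE replicate 51 the DE mean was 121 CPM.

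The Serpine2 promoter is shown because its start peak and its RNA were both higher in DE (chr1:79858616-79858915, minus strand). Capitals mark 6 Sp1 boxes, among them a pair that overlap by 1 base, and 77.7% of its bases were G or C.
Serpine2: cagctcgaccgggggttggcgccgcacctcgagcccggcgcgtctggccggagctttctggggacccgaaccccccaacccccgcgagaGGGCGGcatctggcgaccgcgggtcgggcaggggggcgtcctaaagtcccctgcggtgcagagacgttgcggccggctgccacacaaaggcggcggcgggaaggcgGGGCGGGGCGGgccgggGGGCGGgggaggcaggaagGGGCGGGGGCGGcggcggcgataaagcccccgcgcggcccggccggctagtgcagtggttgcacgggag

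Timp1, the gene of a soluble metalloproteinase inhibitor (ENSMUSG00000001131, chromosome X from 20870166 to 20874737, inside the span of Syn1), resembled Mmp2. Its level was 9.65, 17.7, 17.1, 28.9 and 68.8 CPM in B6 EpiSC replicates 1, 2, 4, 44 and 51 and 11.7, 4.40, 1.37 and 9.48 CPM in DE replicates 2, 4, 44 and 51. EpiSC replicate 1 lay within the DE range and EpiSC replicate 51 far above everything else. The EpiSC mean was 28.4 ± 23.6 CPM (SD, n = 5), 4.22-fold above the DE mean of 6.73 ± 4.70 CPM (SD, n = 4), whereas replicate 1 was 1.43-fold above it.

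Timp3, the gene of the matrix-bound inhibitor (ENSMUSG00000020044, chromosome 10 from 86300412 to 86349505, inside the span of Syn3), was higher in DE. Its level was 22.9, 20.1, 36.7, 26.5 and 29.1 CPM in B6 EpiSC replicates 1, 2, 4, 44 and 51 and 30.1, 66.3, 57.3 and 75.6 CPM in DE replicates 2, 4, 44 and 51. DE replicate 2 lay among the EpiSCs, and the other DE libraries lay above all of them. This library also had the highest feeder marker sum in DE, that is DE replicate 2, and a link between the values was not tested. The DE mean was 57.3 ± 19.6 CPM (SD, n = 4), 2.12-fold above the EpiSC mean of 27.1 ± 6.38 CPM (SD, n = 5).

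The Timp3 promoter is printed because 7 of 10 tested peaks around the gene changed (chr10:86300162-86300461, plus strand). Over all tested peaks 57.6% were called, so this count does not set the gene apart. Capitals mark 1 Snail E-box and 2 Sp1 boxes on the opposite strand.
Timp3: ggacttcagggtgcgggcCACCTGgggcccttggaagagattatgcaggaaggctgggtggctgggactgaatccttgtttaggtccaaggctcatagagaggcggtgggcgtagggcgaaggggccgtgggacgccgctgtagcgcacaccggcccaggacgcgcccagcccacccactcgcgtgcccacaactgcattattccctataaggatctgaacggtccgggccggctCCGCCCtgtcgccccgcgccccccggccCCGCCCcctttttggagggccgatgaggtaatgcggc

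**Figure D1:**
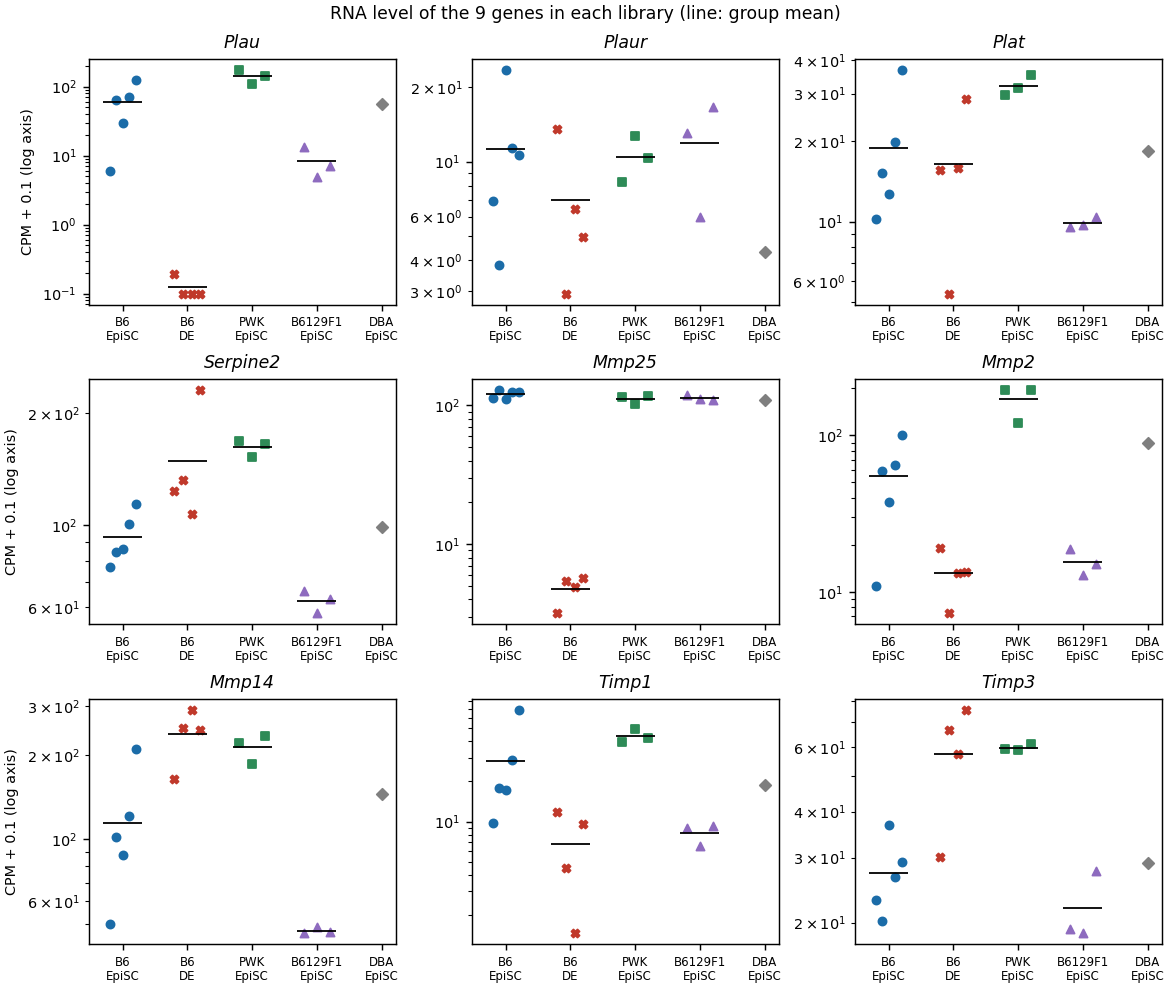
RNA level of each of the 9 genes in CPM plus 0.1 on a log axis, 1 point per library, by group along the x axis (B6 EpiSC, B6 DE, PWK, B6129F1 and DBA EpiSC), with a line at the group mean. Mmp25 lies in a narrow band in all EpiSC groups and at 3.07 to 5.56 CPM in DE, whereas Plau spreads from 4.82 to 172 CPM among EpiSCs and sits at the floor in DE.

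As a stand-in for feeder signal, Col1a1 was compared with each gene across the 12 EpiSC libraries of the 4 strains, over which Col1a1 ranged 99.7-fold. Of the genes, 6 followed Col1a1, and Mmp25 and Plaur did not. The statistic is Pearson's r of log2(CPM + 1), with a permutation test (two-sided, 100000 permutations) adjusted by Benjamini-Hochberg over all 12908 genes with a mean of at least 1 CPM. Of all genes, 12.7% were called with a positive r and 9.3% with a negative r. Of the 9 members, 6 were called, all with a positive r: Plau, Plat, Mmp2, Mmp14, Serpine2 and Timp1.

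Plau and Mmp2 were the closest to Col1a1. Plau ranged 35.7-fold over the 12 libraries, with r = 0.969 (permutation p = 1e-05, the smallest the permutations can give, adjusted p = 0.000669) and Spearman's rho = 0.930 (p = 8e-05). Mmp2 ranged 18.0-fold, with r = 0.970 (permutation p = 1e-05, adjusted p = 0.000669) and rho = 0.965 (p = 2e-05). Mmp14 gave r = 0.949 (permutation p = 1e-05, adjusted p = 0.000669) and rho = 0.923 (p = 9e-05). In PWK libraries, which were rich in Col1a1, all 3 genes stood high, and in B6 EpiSC replicate 1 and the B6129F1 libraries they stood low.

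Plat gave r = 0.904 (permutation p = 0.00013, adjusted p = 0.00365) and rho = 0.902 (p = 8e-05), and Timp1 gave r = 0.886 (permutation p = 0.00021, adjusted p = 0.00501) and rho = 0.881 (p = 0.00034). Serpine2 gave r = 0.834 (permutation p = 0.00109, adjusted p = 0.0138) and rho = 0.881 (p = 0.00031) over a range of 2.91-fold. Timp3 was not called by r (0.638, permutation p = 0.0255, adjusted p = 0.0828), and its rho of 0.727 had an adjusted p of 0.0401 (p = 0.00896). Plaur had r = -0.10 (permutation p = 0.765, adjusted p = 0.841) and rho = -0.147 (p = 0.649), although its level varied 6.22-fold. Mmp25 had r = 0.192 (permutation p = 0.547, adjusted p = 0.669) and rho = 0.238 (p = 0.456), and its highest library was only 1.26-fold above its lowest.

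Leaving out the 2 libraries farthest from the median of Col1a1, B6 replicate 1 and the unnumbered B6129F1 library, kept the same pattern: r was 0.976 for Plau, 0.974 for Mmp2, 0.979 for Mmp14, 0.941 for Plat, 0.919 for Timp1, 0.901 for Serpine2, 0.693 for Timp3, 0.0743 for Mmp25 and -0.115 for Plaur. Because Col1a1 also differed between strains, the relation was computed within strains by subtracting each strain's mean. Then r stayed at 0.976 for Plau, 0.982 for Mmp2 and 0.937 for Mmp14, and was 0.827 for Timp1, 0.817 for Plat and 0.797 for Serpine2. Col1a1 spanned 8.21 to 754 CPM in B6, but only 564 to 819 CPM in PWK and 30.5 to 47.9 CPM in B6129F1. These values therefore rest mostly on the 5 B6 libraries and do not show the relation inside each strain. With 4320 exact permutations within strains the p-values were 0.00185, 0.00162 and 0.00579 for Plau, Mmp2 and Mmp14 and 0.0444 to 0.109 for Serpine2, Timp1 and Plat, and 0 members passed after adjustment over all genes. Timp3 had an r of 0.0944 within strains (exact permutation p = 0.850), and Mmp25 one of 0.612 (exact permutation p = 0.0484).

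Genes with the most similar pattern over the 12 EpiSC libraries differed between the ligand and its receptor. Plau was most like Mmp3 (stromelysin-1), Sema3a and Oaf, with r of 0.993, 0.992 and 0.991. Plaur was most like Akr1a1, Tmcc3 and the tetraspanin Cd9, with r of 0.947, 0.917 and 0.910. The patterns include differences of strain and of feeder markers among libraries, so these are descriptions.

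**Figure D2:**
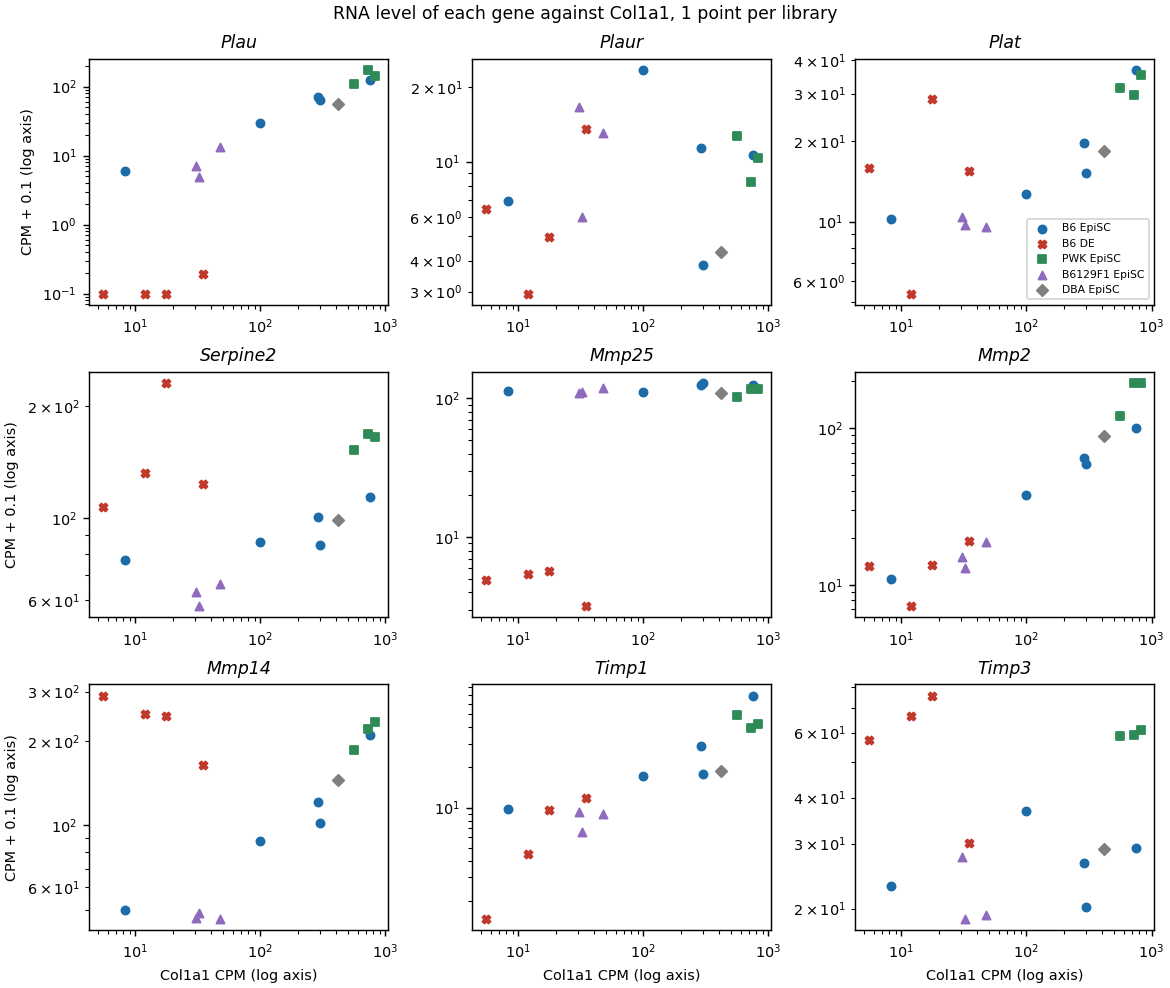
Each gene (y axis, CPM plus 0.1, log axis) against Col1a1 (x axis, CPM, log axis), 1 point per library, with colour and shape by group. Plau, Mmp2 and Mmp14 climb with Col1a1 over the EpiSC libraries, the Mmp25 EpiSC points form a flat line at 103 to 129 CPM, and the DE points of Plau lie far below EpiSC points of like Col1a1. The fibroblast marker Thy1, not drawn, had a like gap, at 0 to 0.142 CPM in DE and 5.87 to 9.31 CPM in B6129F1. Whether like Col1a1 means like feeder content in both states was not tested.

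Strain differences were tested in 1 fit of B6, PWK and B6129F1 EpiSCs (edgeR quasi-likelihood, Benjamini-Hochberg over all 14822 genes). In PWK against B6, 3 of 9 members were called, all higher: Serpine2, Mmp2 and Timp3. Over all genes 26.5% were called, with 12.0% higher and 14.5% lower, so the share of members was close to the background. Of the genes called, 45.4% were higher, and 56.6% with scaling to total library size. The members' median log2 difference was 0.79, against -0.01 over all genes. PWK libraries also held more of the feeder marker Col1a1 on average, at 724, 564 and 819 CPM in BioRep695, BioRep698 and the unnumbered library. Whether this Col1a1 came from feeder cells or from the EpiSCs was not tested, and its level differed with strain. The same fit was therefore made with log2(CPM + 1) of Col1a1 as a covariate. With it, 21.1% of all genes were called.

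Of the 3 called members, Timp3 changed least with this covariate. It stood at 59.0, 58.6 and 61.02 CPM in PWK BioRep695, BioRep698 and the unnumbered library, all above the highest of the 5 B6 EpiSC libraries at 36.7 CPM. The log2 difference was 1.12 (SE 0.19, edgeR adjusted p = 0.00144), and 1.09 (SE 0.23, edgeR adjusted p = 0.00894) with Col1a1 in the fit. Serpine2 stood at 168, 152 and 165 CPM in the same PWK libraries, above all 5 B6 libraries, with a log2 difference of 0.79 (SE 0.11, edgeR adjusted p = 0.000557) and 0.63 (adjusted p = 0.00118) with Col1a1. Mmp2 stood at 195, 120 and 195 CPM, again above all B6 libraries, with a log2 difference of 1.63 (SE 0.50, edgeR adjusted p = 0.0382) that was 0.79 (adjusted p = 0.00303) with Col1a1. The Mmp2 call without the covariate was lost when any library other than B6 replicate 1 or 51 was left out, whereas the log2 difference stayed between 1.51 and 1.81.

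The PWK differences of Plau, Plat, Mmp14 and Timp1, none of them called, were nearer 0 with Col1a1 in the fit. Plau stood at 172, 108 and 141 CPM in PWK, and its log2 difference of 1.24 (edgeR adjusted p = 0.202) became 0.20 (adjusted p = 0.550). Mmp14 stood at 220, 186 and 234 CPM and went from 0.89 (edgeR adjusted p = 0.0756) to 0.36 (adjusted p = 0.124). Timp1 stood at 39.3, 49.0 and 42.3 CPM and went from 0.60 (edgeR adjusted p = 0.399) to -0.00379 (adjusted p = 0.995). Without B6 replicate 51, the B6 library with the most Col1a1, 6 members were called higher in PWK, with Plat, Mmp14 and Timp1 added, and calls over all genes rose to 33.2%. Mmp25 and Plaur were not called, with log2 differences of -0.13 (SE 0.07, edgeR adjusted p = 0.189) and -0.13 (SE 0.51, adjusted p = 0.875).

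In B6129F1 against B6, Serpine2 was the 1 member called, beside 2.84% of all genes (1.34% higher and 1.5% lower). It was lower, at 66.4, 57.7 and 62.9 CPM in replicates 4 and 9 and the unnumbered library, below all 5 B6 EpiSC libraries, with a log2 difference of -0.57 (SE 0.12, edgeR adjusted p = 0.0376). With Col1a1 as a covariate it was -0.41 (adjusted p = 0.0524), and 0 members were called, beside 1.67% of genes. An unadjusted edgeR p under 0.05 was found for 5 of the 9 members and for 21.0% of all genes in that fit. Plau stood at 13.2, 4.82 and 6.96 CPM, and its log2 difference of -2.82 (SE 0.81, edgeR adjusted p = 0.0807) became -0.92 (adjusted p = 0.0686) with Col1a1. The Serpine2 call was lost without B6 replicate 4 or 44 or any 1 of the PWK or B6129F1 libraries. Without B6 replicate 1, the B6 library with the least Col1a1, 5 members were called lower (Plau, Serpine2, Mmp2, Mmp14 and Timp1), and calls over all genes also rose, to 13.2%. This comparison shares its B6 libraries with that of PWK.

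The 1 DBA library had no replicate, so its levels have no test. Plau stood at 55.2 CPM, Mmp2 at 89.0 CPM and Mmp14 at 145 CPM, each within the range of the B6 EpiSCs, as were Plaur at 4.21 CPM, Plat at 18.2 CPM, Serpine2 at 98.4 CPM, Timp1 at 18.6 CPM and Timp3 at 29.0 CPM. Mmp25 was at 110 CPM, just under the lowest B6 EpiSC library at 111 CPM.

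**Figure D3:**
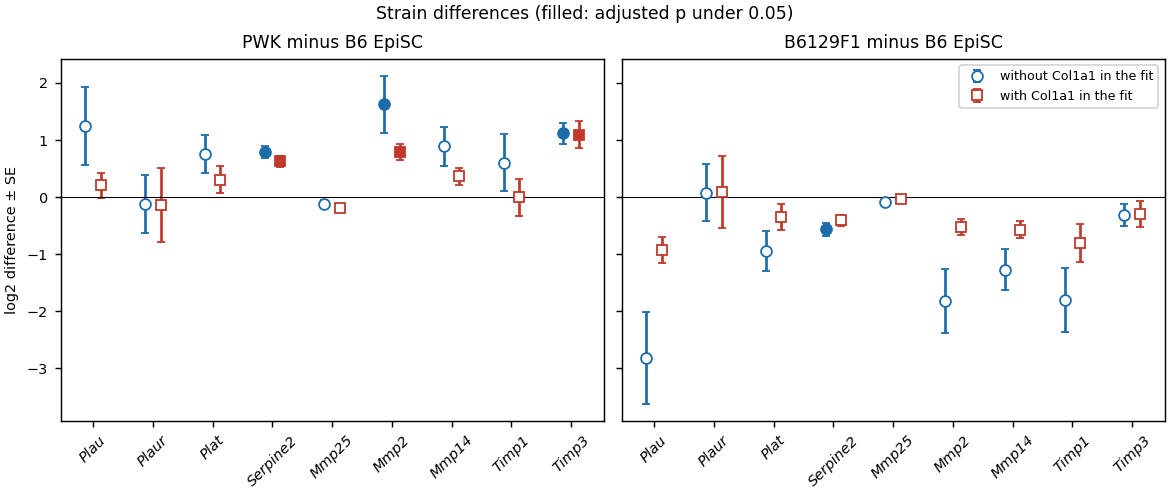
Log2 difference from B6 EpiSCs (y axis, bars are 1 SE of the fit) of each gene in PWK and in B6129F1 EpiSCs, in fits without Col1a1 (circles) and with it (squares), filled where the adjusted p was under 0.05. The squares of Plau, Mmp14 and Timp1 lie nearer 0 than the circles, and those of Timp3 and Serpine2 in PWK stay near 1.09 and 0.63.

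Chromatin near the genes was compared between B6 DE and B6 EpiSCs over peaks within 10 kb of each gene. Of 67 such peaks 51 could be tested, and 12 were more open and 15 less open in DE. That is 52.9%, beside 57.6% of all 113870 tested peaks (32.6% higher and 25.0% lower), so the members' share was near the background. Peaks at Plat and Serpine2 that were called were all more open in DE, those at Mmp2 all less open, and those at Plaur, Mmp25, Mmp14 and Timp3 went both ways. No peak was called at Plau or Timp1, with 2 tested at each. Peaks too low to test are not in these counts, and some at Plau, Timp1 and Plat held less in DE, as given below.

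At Mmp25, the peak over the start site did not follow the RNA. This peak, chromosome 17 from 23645164 to 23645510, held 11.1, 13.8, 9.27 and 13.1 CPM in EpiSC replicates 1, 4, 44 and 51 and 14.8, 14.2, 11.9 and 11.1 CPM in DE replicates 2, 4, 44 and 51. The groups overlapped, and the log2 difference was 0.15 (SE 0.22, edgeR adjusted p = 0.578), while the RNA was 25.8-fold lower in DE. Other peaks at the gene changed: one inside it, from 23643477 to 23643604, rose from 0 to 0.616 CPM in EpiSCs to 3.75 to 5.19 CPM in DE (log2 3.38, SE 0.53, edgeR adjusted p = 1.6e-05). Another, upstream of the start from 23645999 to 23646173, fell from 3.76 to 6.62 CPM to 0.592 to 1.98 CPM (log2 -2.19, SE 0.44, edgeR adjusted p = 0.000207).

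At Plau neither of the tested peaks was called. The peak over its lower-numbered gene end, chromosome 14 from 20836608 to 20836755, held 9.70, 10.6, 12.0 and 8.36 CPM in EpiSC replicates 1, 4, 44 and 51 and 6.91, 9.61, 5.64 and 3.79 CPM in DE replicates 2, 4, 44 and 51. The groups overlapped through DE replicate 4, and the log2 difference of -0.58 (SE 0.28, edgeR adjusted p = 0.0859) was not called. The start of Plau is not known from the tables used, so whether this peak lies at it is not stated here. The other 3 peaks near the gene were too low to test. Their means were 1.08, 2.00 and 2.54 CPM in EpiSCs and 0.354, 0.277 and 0.358 CPM in DE, lower values that carry no test. At Col1a1, for comparison, the peak nearest its lower-numbered end, from 94936934 to 94937229 on chromosome 11, fell by 0.88 on the log2 scale in DE (edgeR adjusted p = 0.00491). The largest fall there was 2.15, from 94958368 to 94958634 (adjusted p = 5.75e-06), and the peak from 94928865 to 94929165 was not called (log2 0.20, adjusted p = 0.538). The part of feeder nuclei in the EpiSC peaks was not tested.

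Plaur lost accessibility at 5 of 9 tested peaks and gained it at 1, that is 66.7% called, beside 57.6% of all tested peaks. Its start peak, chromosome 7 from 24462404 to 24462524, held 4.16 to 7.53 CPM in EpiSCs and 2.75 to 4.66 CPM in DE, overlapping, with a log2 difference of -0.77 (SE 0.32, edgeR adjusted p = 0.0470). The largest fall was inside the gene, from 24470496 to 24470568, at 2.20 to 2.51 CPM in EpiSCs and 0 to 0.583 CPM in DE (log2 -3.02, edgeR adjusted p = 0.000371). The rise was beyond the gene, from 24484437 to 24484656, at 0.558 to 5.48 CPM in EpiSCs and 14.2 to 18.2 CPM in DE (log2 2.25, edgeR adjusted p = 3.22e-05). These changes of accessibility stood beside RNA levels whose groups overlapped.

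Peaks more open in DE lay inside Plat and Serpine2 and beyond Mmp14. At Plat the peak from 22761399 to 22761745 on chromosome 8 held 0 to 2.16 CPM in EpiSCs and 16.8, 12.8, 15.4 and 19.2 CPM in DE replicates 2, 4, 44 and 51 (log2 3.53, SE 0.42, edgeR adjusted p = 7.11e-07), high in all 4 DE libraries and not only in replicate 51. Its RNA did not separate the states. Of 8 peaks near Plat 4 were tested. Among the rest, those from 22759122 and 22764138 had means of 3.53 and 2.68 CPM in EpiSCs and 0.689 and 0.113 CPM in DE. Those from 22783599 and 22789540 had means of 0.892 and 1.34 CPM in EpiSCs and 0.394 and 1.47 CPM in DE. At Serpine2 the start peak, chromosome 1 from 79858475 to 79858633, rose from 1.63 to 2.20 CPM to 2.62 to 5.34 CPM (log2 1.12, SE 0.40, edgeR adjusted p = 0.0203). A second Serpine2 peak, from 79832792 to 79833028, rose by 1.61 on the log2 scale (edgeR adjusted p = 0.00035).

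At Mmp14 the start peak, chromosome 14 from 54431477 to 54431729, did not differ beyond its spread (log2 0.29, SE 0.29, edgeR adjusted p = 0.403). Beyond the gene, the peak from 54445606 to 54445955 held 2.00, 6.30, 5.86 and 3.07 CPM in EpiSC replicates 1, 4, 44 and 51 and 44.2, 46.1, 44.8 and 26.8 CPM in DE replicates 2, 4, 44 and 51. All DE libraries lay far above all EpiSC libraries (log2 3.28, SE 0.28, edgeR adjusted p = 1.17e-08). A peak inside the gene, from 54434240 to 54434329, went the other way (log2 -1.78, edgeR adjusted p = 0.00169).

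Mmp2 had 3 called peaks of 7, all less open in DE, that is 42.9% called, beside 57.6% of all tested peaks. The one over its lower-numbered end, chromosome 8 from 92827294 to 92827408, held 3.39 to 6.27 CPM in EpiSCs and 1.18, 1.22, 1.28 and 2.62 CPM in DE replicates 2, 4, 44 and 51, with no overlap (log2 -1.69, SE 0.42, edgeR adjusted p = 0.00152). DE replicate 51, the library with the chromosome 8 shift in RNA, was the highest of the DE values.

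Timp1's start peak, chromosome X from 20870064 to 20870220, did not differ beyond its spread (log2 -0.34, SE 0.28, edgeR adjusted p = 0.310). A Timp1 peak too low to test, from 20875373 to 20875471, held 0.914 to 3.90 CPM in EpiSCs and 0 CPM in every DE library. Timp3 had the most called peaks, 4 more open and 3 less open of 10. Timp3 also had the most peaks near it (14), and its 70% called stood beside 75% at Mmp25 and 57.6% of all tested peaks. Its start peak, chromosome 10 from 86300315 to 86300558, held 6.133 to 8.93 CPM in EpiSCs and 9.92 to 13.4 CPM in DE (log2 0.62, SE 0.24, edgeR adjusted p = 0.0312). Farther inside, the peak from 86338174 to 86338439 fell from 9.70, 11.8, 13.4 and 12.0 CPM in EpiSC replicates 1, 4, 44 and 51 to 0.987, 0.763, 0.513 and 0 CPM in DE replicates 2, 4, 44 and 51 (log2 -4.19, SE 0.41, edgeR adjusted p = 5.15e-08). A neighbouring peak, from 86341593 to 86342037, rose from 0.976 to 4.88 CPM to 16.3 to 26.8 CPM (log2 2.69, SE 0.32, edgeR adjusted p = 5.51e-07). This region is shared with Syn3, so the peaks cannot be given to Timp3 alone.

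**Figure D4:**
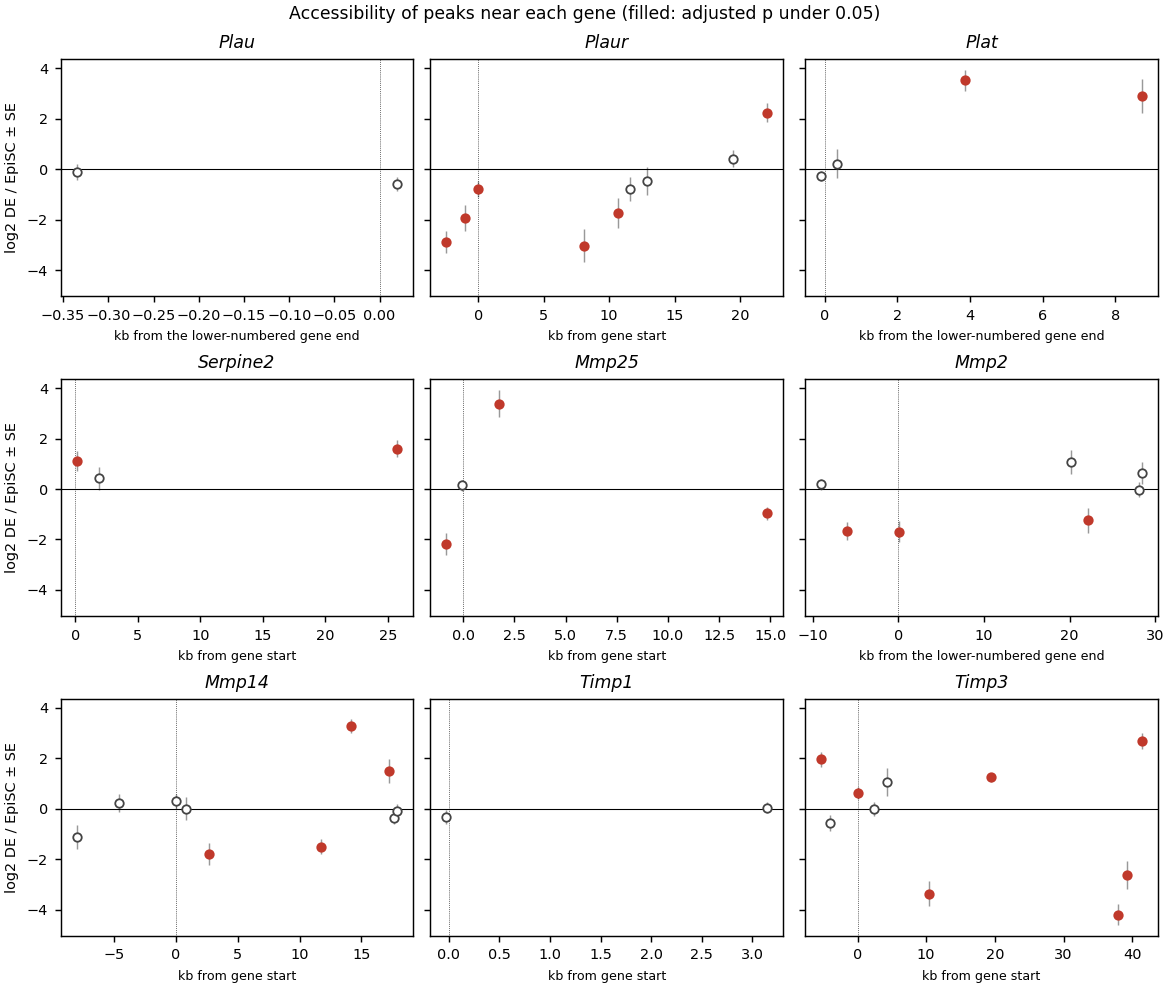
Log2 difference in accessibility between B6 DE and B6 EpiSCs (y axis, bars are 1 SE of the fit) of each tested peak near the 9 genes, by distance in kb (x axis) from the start, or from the lower-numbered gene end for Plau, Plat and Mmp2. Filled points had an adjusted p under 0.05: the Mmp25 start peak is open and near 0, and called peaks of opposite sign lie side by side at Timp3.

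Chromatin at the genes was also compared between strains. Whether reads of PWK and B6 map equally well to build mm10 was not tested, here or for RNA. Of 63 peaks near the members in the EpiSC peak table, 57 were tested for PWK against B6, and 1 was called higher and 0 lower, beside 5.11% of all 137667 tested peaks (1.42% higher and 3.68% lower), a count too small to set the members apart. That peak lay upstream of Plaur, chromosome 7 from 24459926 to 24460137. It held 7.05, 8.71, 8.25 and 7.68 CPM in B6 EpiSC replicates 1, 4, 44 and 51, 18.5 and 16.8 CPM in PWK BioRep698 and the unnumbered library, and 8.35 CPM in DBA. Both PWK libraries lay above the rest (log2 1.10, SE 0.25, edgeR adjusted p = 0.0161). The call was lost when B6 replicate 1 or PWK BioRep698 was left out; the latter leaves 1 PWK library, which is assumed to vary like the B6 libraries. The peak stood beside a Plaur RNA difference of -0.13 on the log2 scale between these strains. The start peaks of Mmp25 (log2 0.10, edgeR adjusted p = 0.893) and Plaur (log2 0.79, edgeR adjusted p = 0.201) were not called.

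Other genes of the pathway were read from 7 lists with 64 genes, of which 63 were in the table and 48 were tested between B6 DE and B6 EpiSCs. In DE 7 were higher and 20 lower, that is 56.2%, beside 62% of all 14085 genes (31.5% higher and 30.6% lower). The median log2 difference was -1.45, against -0.01 over all genes. By list, 25% to 90% of the tested genes were called, in lists of 3 to 12 tested genes, so nothing is read from the count of a single list. With Col1a1 as a covariate, an alternative added after seeing the data, 8 were higher and 14 lower, beside 52.3% of all genes. Col1a1 in 4 of the 5 B6 EpiSC libraries lay above every DE library, so this covariate is nearly aligned with the state. Values with it lean on EpiSC replicate 1 and do not cleanly remove feeder signal. The feeder markers summed to more in 4 of the 5 B6 EpiSC libraries (411 to 2840 CPM) than in any DE library, and to less in EpiSC replicate 1 (58.4 CPM), and their part in these differences was otherwise not tested.

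In the plasminogen system 3 of 10 tested genes were higher and 6 lower in DE, that is 90% called, beside 62% of all genes. S100a10 and Anxa2, which form the annexin complex that binds plasminogen at the surface, were both higher: S100a10 rose from 56.2 ± 19.8 CPM (SD, n = 5) to 199 ± 93.2 CPM (SD, n = 4; log2 1.89, edgeR adjusted p = 0.000988), and Anxa2 from 95.4 ± 48.5 to 190.0 ± 64.4 CPM (log2 1.06, edgeR adjusted p = 0.0286). Plgrkt, a plasminogen receptor, rose by 0.95 (edgeR adjusted p = 0.0315), and was no longer called with Col1a1 as a covariate (0.91, adjusted p = 0.116). Lrp1, the endocytic receptor that takes up urokinase from the cell surface, fell from 341 ± 157 to 46.0 ± 10.1 CPM (log2 -2.83, edgeR adjusted p = 0.000108). Thrombospondin Thbs1 was at log2 -2.31 (edgeR adjusted p = 0.0215), and at 0.03 (adjusted p = 0.981) with Col1a1 in the fit. Plasminogen itself, Plg, had at most 5 counts in any B6 library.

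With Col1a1 as a covariate, and with the limit of that fit given above, Lrp1 stayed lower, at log2 -1.74 (edgeR adjusted p = 0.000616). S100a10 and Anxa2 stayed higher, at 2.26 and 1.90. Among other matrix metalloproteinases 1 of 12 tested was higher and 5 lower, that is 50% called, beside 62% of all genes. Mmp11 (stromelysin-3) rose from 16.6 ± 5.21 to 60.1 ± 14.0 CPM (log2 1.91, edgeR adjusted p = 0.000133), and 1.96 with Col1a1. Mmp3 and Mmp10, the stromelysins, were at log2 -2.68 and -2.63 (edgeR adjusted p = 0.0424 and 0.0281). With Col1a1 they were at 0.10 and -0.08 and no longer called. Of the less abundant members of this list, Mmp16 and Mmp17, membrane-type enzymes named after their values were seen, fell by 3.35 and 2.64 (edgeR adjusted p = 4.2e-05 and 0.000514) and stayed called with Col1a1, at -3.52 and -2.79 (adjusted p = 0.0002 and 0.00463).

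Reck, a membrane-anchored metalloproteinase inhibitor, rose from 14.5 ± 4.10 to 37.9 ± 11.2 CPM (log2 1.43, edgeR adjusted p = 0.000854). Of the list of 3 other inhibitors, 1 was higher and 1 lower, that is 66.7% called, beside 62% of all genes. Among membrane serine proteases and their inhibitors 2 of 6 tested were higher and 0 lower, that is 33.3% called, beside 62% of all genes. The inhibitor Spint2 (HAI-2) rose from 83.5 ± 7.56 to 548 ± 169 CPM (log2 2.78, edgeR adjusted p = 3.48e-06), and prostasin, Prss8, from 9.30 ± 3.76 to 36.6 ± 19.2 CPM (log2 2.05, edgeR adjusted p = 0.00172). ADAM proteases had 0 of 8 higher and 4 lower, that is 50% called, beside 62% of all genes. Adam23, a family member without protease activity, was at -5.53 (edgeR adjusted p = 0.000455) and Adam19 at -1.39 (adjusted p = 0.00563). Proprotein convertases had 1 of 4 lower and surface peptidases 3 of 5, that is 25% and 60% called, beside the same 62%. Of these, Lnpep (insulin-regulated aminopeptidase) fell from 95.3 ± 7.40 to 9.60 ± 2.75 CPM (log2 -3.26, edgeR adjusted p = 1.22e-06) and was at -3.18 with Col1a1, and the less abundant Anpep (aminopeptidase N), named after its value was seen, was at -3.94 (edgeR adjusted p = 7.85e-05) and at -3.64 with Col1a1.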

How the data were processed

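RNA-seq and ATAC-seq libraries of EpiSCs and DE were analysed from gene and peak tables that the authors deposited as raw counts, per the file headers, with whole numbers in every cell. Per the submitters' processing notes, the tools named are Salmon, featureCounts and DESeq2 for RNA and fastp, Bowtie2, MACS2, featureCounts and DESeq2 for ATAC, with build mm10, and no roles or order are given. Whether peak starts count from 0 or 1 is not given in the sources used here. Of the 30 samples 27 were used, and 3 PWK DE samples were not analysed here. A further 17 columns could be matched to no sample and were not used. Columns of PWK and B6129F1 EpiSCs without a replicate number were placed by strain and are called unnumbered. The 5 B6 EpiSC RNA columns are identical in both gene tables.

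Counts were tested with edgeR 4.0.16 in R 4.3.3 (limma 3.58.1), using TMM scaling, the filterByExpr filter and quasi-likelihood fits in robust mode. Benjamini-Hochberg adjustment ran over all genes or peaks of a fit, with calls below 0.05. Only libraries of B6 entered the comparison of DE with EpiSCs, and the strain comparisons used 1 fit per assay to all strains with replicates. The CPM of RNA refer to a TMM scaling of all 16 libraries together, and those of peaks to the scaled libraries of each peak table. A group with at most 3 counts in each library was at the floor. Genes were given symbols, spans and promoters from RefSeq tables of GRCm38.p6, with symbols for 29270 of 29555 identifiers. Those tables give the start for 6 members, and for Plau, Plat and Mmp2 the gene end was used. Scripts were tested on simulated data.

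The genes named are the 9 members, Col1a1, up to 3 called genes per list and direction with the largest change and a mean log2 CPM of at least 3, and per member the peak nearest the start and the called peaks with the largest change. Thy1 and Plg were chosen after their values were seen. Members, lists and rules were chosen with earlier results of these data known. Alternatives were other scalings, DESeq2 1.42.0, other filters, each library left out, the replicate number as a block, Col1a1 as a covariate, a pseudocount of 0.1 and peaks within 50 kb. The relation to Col1a1 was to be adjusted over the members and is adjusted over all genes instead. A gene counted in the plasminogen list is not reported here by name.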

Additional observations from a re-analysis of the deposited data

Results flagged for a closer look

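In groups of 4 or 5 libraries, 3 of 56 groups looked at held a value far from the others by Dixon's criterion, and chance alone flags about 1 in 20 groups. The first was Plau RNA in DE replicate 2, at 0.0945 CPM where the other 3 DE libraries were at 0. That value is 2 counts, in the DE library with the highest feeder marker sum (232 CPM, against 63.1 to 73.1 CPM).

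DE replicate 51 gave the other flagged values, both in ATAC-seq. Its value of 2.62 CPM at the Mmp2 peak from 92827294 was the highest, where the other DE libraries lay at 1.18 to 1.28 CPM. Its value of 26.8 CPM at the Mmp14 peak from 54445606 was the lowest, where the others lay at 44.2 to 46.1 CPM. This library had the fewest counts in peaks of the DE libraries, 3751526.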

How the results depend on the processing

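Most calls on single members kept their direction and side of the threshold. In PWK against B6, 3 members were higher, 2 to 6 with each library left out in turn (6 without B6 EpiSC replicate 51), and 0 were lower throughout. Over all genes, 16.2% to 33.2% were then called (26.5% in the full fit). In B6129F1 against B6, 1 was lower, with a range of 0 to 5 when libraries were left out, 5 with DESeq2, 0 with only those groups in the fit and 0 with Col1a1 as a covariate. The shares over all genes moved likewise, from 2.84% to between 0% and 13.2% with libraries left out, 13.5% with DESeq2, 0% with only those groups and 1.67% with Col1a1. Near the members, 12 peaks were more open and 15 less open in DE (10 to 14 and 15 to 18 with libraries left out), 4 and 3 when at least 10 counts were required in every library, which leaves fewer peaks, and 28 and 33 within 50 kb. Scaling to total library size moved the median log2 difference of all DE peaks from -0.01 to -0.22. For PWK peaks, 1 was higher (0 to 1 with libraries left out) and 0 lower (0 to 1, and 2 within 50 kb). The 6 members called with Col1a1 stayed 6 with each library left out and were 0 after subtracting strain means. There r stayed at 0.976 for Plau, with p = 0.00185 over 4320 exact permutations within strains, before adjustment. Pathway calls ranged from 5 to 7 higher and 15 to 22 lower with libraries left out.

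Directions reversed for Plat, Plaur and Timp1. Plat in DE, at -0.15, was 0.22 without B6 EpiSC replicate 51, 0.15 without DE replicate 4, -0.55 without DE replicate 51 and 0.73 with Col1a1 as a covariate. Plaur in PWK was 0.33 without B6 replicate 4, 0.01 without PWK BioRep695 and -0.35 without B6 replicate 2, and Timp1 in PWK was -0.00379 with Col1a1 as a covariate. Plaur in B6129F1 was -0.14, -0.02 and -0.25 without B6 replicate 2, B6 replicate 1 and the unnumbered B6129F1 library, and at most 0.54 (without B6 replicate 4). The r of Plaur with Col1a1 was 0.0331 within strains and ran from -0.260 to 0.0247 with libraries left out. With Col1a1 as a covariate, log2 differences in DE became -9.07 for Plau, -0.18 for Mmp2, 2.02 for Mmp14 and -0.49 for Timp1. In that fit Col1a1 is nearly aligned with the state, so state and feeder marker are poorly separated. The causes were not tested.

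The replicate numbers were not taken as pairs: deviations of same-numbered EpiSC and DE libraries correlated at 0.187, 0.151, 0.141 and 0.0663 in RNA and at 0.0468, -0.0130 and 0.0279 in ATAC. In RNA each EpiSC library whose number also occurs in DE correlated best with its own number there, a hint from the data only. DE replicate 4, however, correlated more with EpiSC replicate 1 (0.0873) than with EpiSC replicate 4 (0.0663). In ATAC the best match was not always the own number. With the replicate block, pathway calls were 5 higher and 23 lower (6 and 22 in the same libraries without it), and member peaks 11 and 12 (12 and 15 without it). Low counts limit most peaks, and a count of 0 does not show absence.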
